A study of Mus musculus with 38 samples.

Results

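Male mice of the outbred CD-1 stock were fed propiconazole for 4 days, and their livers were compared with those of CD-1 males on control feed for the same time. The comparison used 6 of the 38 arrays of the series, the 3 titled 4DayPropi and the 3 titled 4DayConazoleControl, and these titles alone chose them. The mice were 6 to 8 weeks old, the diet held 2500 ppm propiconazole, and the labels give a mean intake of 349.6 ± 46.7 mg/kg/day. Arrays were labelled as biological replicates, each measured whole liver RNA, and the labels mention no pooling of animals. A pair of further comparisons used 3 livers from 4 days of triadimefon (1800 ppm, 257.1 ± 33.5 mg/kg/day), and 3 livers each from 30 days of propiconazole and of control feed, from the same conazole experiment. The remaining groups, 3 livers from 30 days of triadimefon and 20 from a separate phenobarbital experiment (control feed, or 850 ppm phenobarbital, for 4 or 30 days), entered only the shared normalization and the estimate of each gene's spread.

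Propiconazole is a triazole fungicide that blocks the sterol demethylase CYP51 of fungi. In rodent liver many azoles act on the nuclear receptors CAR and PXR, which switch on cytochrome P450 enzymes, conjugating enzymes and efflux pumps, the machinery that clears foreign compounds. P450 enzymes carry heme, so their induction draws on heme synthesis. Fatty acid oxidation is switched on by another nuclear receptor, PPAR-alpha, with the PGC-1 coactivators. The tissue label was checked first: all 12 hepatocyte markers lay above background on all 6 arrays, and their summed level was 16.44, 16.42 and 16.56 in propiconazole livers, against 16.54, 16.54 and 16.55 in control livers (log2 of the summed intensity + 16).

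All levels below are log2(intensity + 16) after quantile normalization, on which 4 is the lowest possible value. Background is 6.13, set from 39 olfactory receptor genes at the 95th percentile of their mean levels. A change is the mean of propiconazole livers minus that of control livers on this scale, with its standard error, and it understates the change of dim genes. Standard errors and adjusted p rest on the spread of each gene pooled over all 10 groups, not on the 6 livers alone. Propiconazole livers were more variable than the other groups, so these standard errors can be too small for them. For Ppargc1b the standard error is 0.43, where the SD of its 3 propiconazole arrays is 1.57. Precision is limited by the number of arrays and by signal over background. In whole liver RNA, fewer cells of a type and less RNA per cell cannot be told apart.

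The propiconazole livers were the most variable group of the series, and replicate 2 stood apart. The Gapdh 3′ probe set of this array lay 6.39 above the 5′ one in log2, where the remaining 37 arrays had -0.37 to 0.22. For Actb the same difference was 1.84, above the maximum of the others. Its Tfrc difference of 1.31 lay inside the range of the others (1.13 to 3.25). Replicate 2 correlated with the other propiconazole arrays at a mean r of 0.818 over genes above background. Replicates 1 and 3 reached 0.875 and 0.873, against 0.966 for each control array. The means of replicates 1 and 3 include their correlation with replicate 2, which lowers them. The median SD of a gene above background was 0.406 in propiconazole livers (0.222 without replicate 2), against 0.174 in control livers, and it was 0.129 to 0.203 in the other 8 groups. Weights that limma estimated for each array from this spread were 0.38, 0.07 and 0.45 for propiconazole replicates 1 to 3, against 0.64, 0.80 and 0.83 for the controls. Results are therefore given with and without propiconazole replicate 2.

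**Figure D1:**
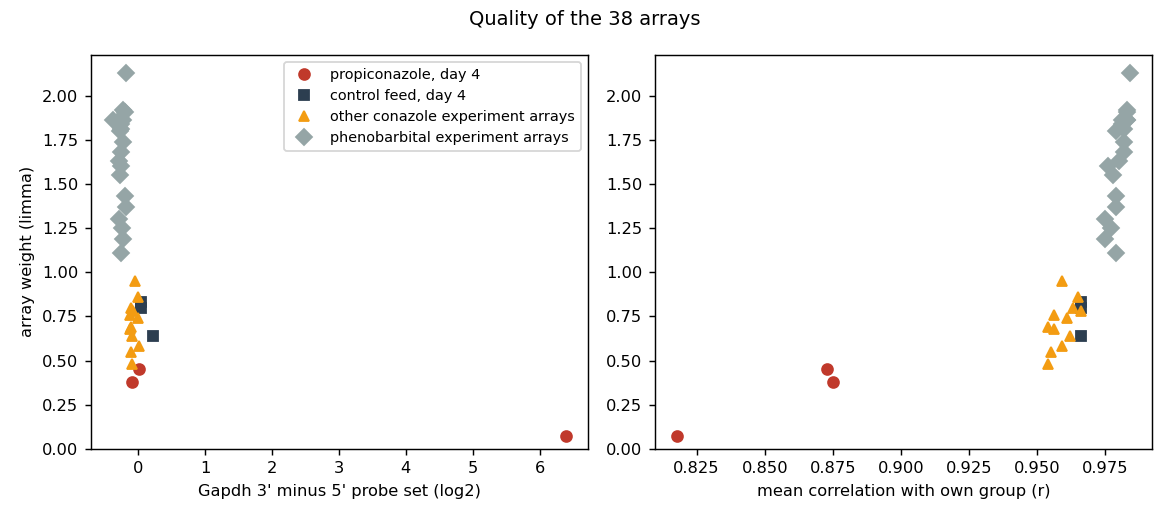
Array weight (limma, no unit) of each of the 38 arrays against the Gapdh 3′ minus 5′ difference (left, log2) and against the mean correlation with the other arrays of its group (right, r). Propiconazole day 4 replicate 2 lies alone at a Gapdh difference of 6.39 and a weight of 0.07, and all 3 propiconazole day 4 arrays lie below the control arrays in weight and in correlation.

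With all arrays, 1305 of 17728 genes were higher (7.36%) and 1158 lower (6.53%) in propiconazole livers at a limma adjusted p under 0.05. Without replicate 2, 782 of 17685 were higher (4.42%) and 862 lower (4.87%). Genes called in the same direction both ways numbered 537 higher (3.03%) and 537 lower (3.03%), and the text below is about these unless it says otherwise. The median change over all genes was 0.03, and 0 without replicate 2. In all, 13.9% of genes were called with all arrays, 9.30% without replicate 2 and 6.06% both ways. Calls were denser among brighter genes: a fit on the 9313 genes above background called 1091 higher and 1167 lower. Many lists below hold mainly genes above background, and for those the share of all genes is a low comparison. The number of calls differed with the arrays fitted and with their weights. A fit on the 18 conazole arrays called 138 genes higher and 86 lower. Array weights left 44 higher and 54 lower (0.248% and 0.305%, or 0.553% in all). A fit on the 6 arrays alone called 6 genes higher and 0 lower (1629 at an unadjusted p under 0.05). Leaving out propiconazole replicate 3, control replicate 1 or control replicate 2 gave 3856, 1529 and 1526 calls. The balance of higher and lower rested on the scaling, with 32.8% of calls higher after median centring (588 higher, 1202 lower) and 8.63% in the values as deposited (223 higher, 2360 lower), where the median change of all genes was -0.16.

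The 15 largest rises and 15 largest falls were taken from genes called both ways whose propiconazole and control arrays did not overlap and whose brighter group mean was above background, leaving out names of clone or predicted genes and cross-hybridising probe sets (384 and 374 genes qualified). Among the rises stand P450 enzymes, the heme synthesis enzyme Alas1, the glutathione transferase Gstt3 and the chaperone Hspa1b. Among the falls stand the PPAR-alpha gene, its coactivator Ppargc1b, and the immediate early genes Egr1 and Junb.

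**Figure D2:**
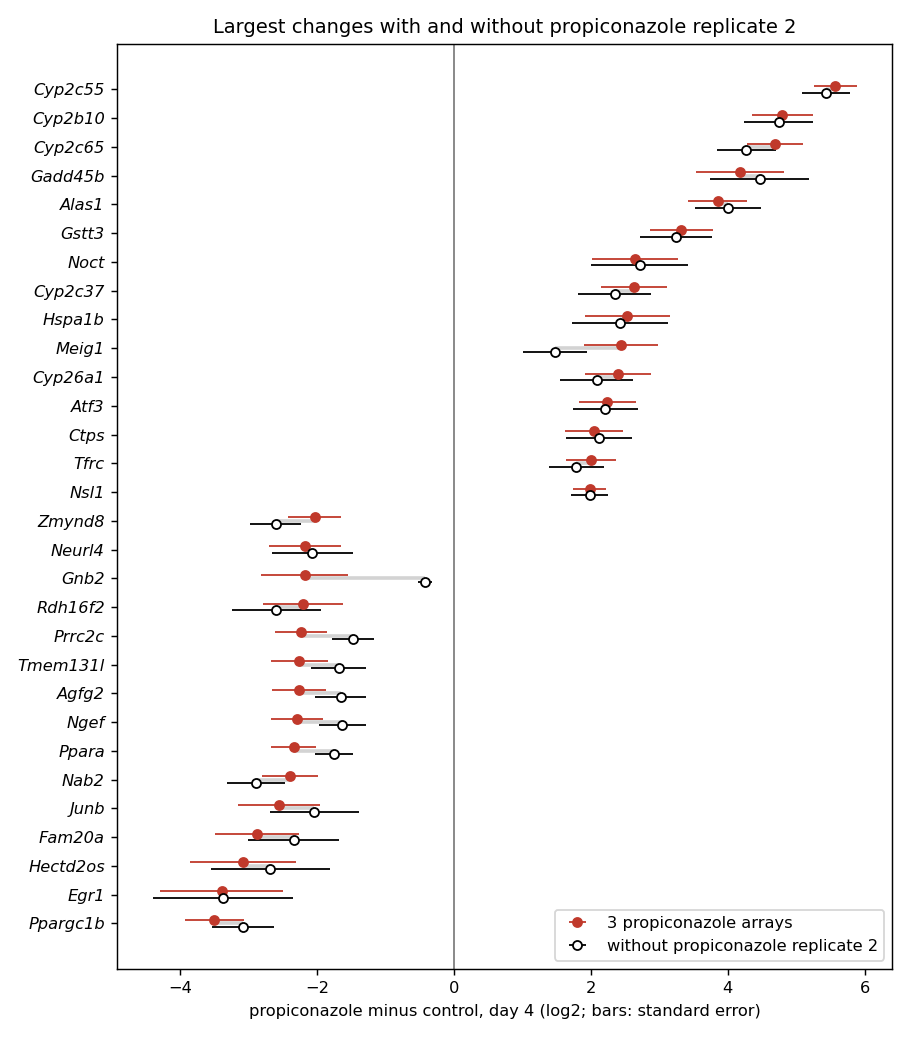
Change (propiconazole minus control, day 4, log2) of the 15 largest rises and 15 largest falls among the 384 and 374 genes that qualified, filled with all 3 propiconazole arrays and open without replicate 2; bars are standard errors. Most rises lie close with and without replicate 2, except Meig1 (2.44 with it and 1.48 without). Most falls are smaller without it, as for Prrc2c (-2.24 with it and -1.48 without) and Ngef (-2.29 and -1.63). Nab2, Rdh16f2 and Zmynd8 fall further without it. Gnb2 moves most, to -0.43 without replicate 2, against -2.18 with it.

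Cytochrome P450 enzymes of the CYP2B and CYP2C families carried the largest rises. Of 19 CYP2B, CYP2C and CYP3A enzymes measured, 8 rose and 0 fell with all arrays, and 7 rose and 0 fell without replicate 2 (7 both ways), where all genes gave 7.36% and 4.42% higher. The median change of the 19 was 0.60, and 0.23 without replicate 2. Cyp2c55, an inducible P450 that oxidises fatty acids and steroids, stood at 12.87, 12.93 and 12.14 in propiconazole livers, against 6.55, 7.23 and 7.44 in control livers. This was a rise of 5.57 ± 0.32, or 47.7-fold (adjusted p = 2.2e-13), with a wide gap between the groups. Cyp2b10, the classical CAR target, stood at 13.05, 13.11 and 12.86 in propiconazole livers, against 8.97, 7.97 and 7.69 in control livers, a rise of 4.80 ± 0.45 or 27.8-fold (adjusted p = 2.2e-08). Cyp2c65, a close relative of Cyp2c55, was measured at 8.71, 9.60 and 8.00 in propiconazole livers, while all 3 control livers were below background (4.00, 4.00 and 4.25). It was at least 6.23-fold higher (adjusted p = 6.1e-09). Without replicate 2 the changes of Cyp2c55, Cyp2b10 and Cyp2c65 were 5.43, 4.74 and 4.27.

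Other members moved less. Cyp2c37 stood at 9.32, 9.76 and 8.50 in propiconazole livers, against 6.76, 7.18 and 5.76 in control livers (2.63 ± 0.48, adjusted p = 0.00059). Cyp2c54 rose by 1.49 ± 0.20, Cyp3a44, a female-biased enzyme in mice, by 1.03 ± 0.25 and Cyp2c50 by 0.85 ± 0.09, with no overlap between groups. Cyp3a11, a target of PXR, overlapped between the groups at 13.08, 13.12 and 13.13 in propiconazole livers, against 13.15, 13.11 and 13.08 in control livers (named for this contrast after its values were seen). Cyp2c55, Cyp2b10, Cyp2c65, Cyp2c54 and Cyp2c50 were also called with array weights and on the conazole arrays alone, with and without replicate 2. Of 28 P450 electron partners and other phase I enzymes, 8 rose and 4 fell (5 and 1 without replicate 2). All genes gave 7.36% higher and 6.53% lower (4.42% and 4.87% without replicate 2). The rises were led by the carbonyl reductase Cbr1 (1.24 ± 0.22) and the steroid reductase Akr1d1 (1.05 ± 0.20).

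Alas1, which catalyses the first and limiting step of heme synthesis, rose with them. It stood at 12.03, 11.64 and 12.17 in propiconazole livers, against 8.31, 8.15 and 7.83 in control livers, a rise of 3.85 ± 0.43 or 14.4-fold (adjusted p = 1.1e-06; 4.01 without replicate 2). It was the sole called member of 14 genes of heme synthesis and breakdown, whose median change was -0.05. Tfrc, the transferrin receptor that takes up iron, stood at 10.64, 11.34 and 10.76 in propiconazole livers, against 8.53, 9.15 and 9.06 in control livers (4.01-fold, adjusted p = 0.00062). Among 17 genes of iron handling 3 rose and 2 fell (2 and 1 without replicate 2). For all genes the shares were 7.36% higher and 6.53% lower (4.42% and 4.87% without replicate 2).

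Conjugating enzymes rose in part. Of 22 glutathione S-transferases 6 rose and 2 fell, and 4 rose and 0 fell without replicate 2, where all genes gave 7.36% higher and 6.53% lower, and 4.42% and 4.87% without replicate 2. Gstt3 stood at 11.58, 11.06 and 10.06 in propiconazole livers, against 8.28, 7.50 and 6.95 in control livers, a rise of 3.32 ± 0.46 (adjusted p = 3.1e-05). The mu class enzyme Gstm3 stood at 13.26, 13.28 and 12.71 in propiconazole livers, against 11.65, 11.42 and 11.66 in control livers (1.51 ± 0.15, adjusted p = 1.3e-07), and Gstm2 rose by 1.49 ± 0.33. Gstm4 rose by 0.99 ± 0.25, but by 0.60 without propiconazole replicate 1 (adjusted p = 0.069). The median over the 22 was 0.11, and 0.25 without replicate 2.

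Among the 22 glucuronosyl- and sulfotransferases measured, 6 were called higher and 0 lower, and 4 and 0 without replicate 2, with a median of 0.26. Beside this and the next lists, all genes gave 7.36% higher and 6.53% lower (4.42% and 4.87% without replicate 2). The sulfotransferase Sult1d1 rose by 1.47 ± 0.32 and Sult1c2 by 1.45 ± 0.33, while Ugdh, which makes the UDP-glucuronic acid that glucuronidation uses, rose by 0.95 ± 0.20. The most even of them was Ugt2b34, at 12.61, 12.77 and 12.51 in propiconazole livers, against 11.84, 11.99 and 11.99 in control livers (0.69 ± 0.08, adjusted p = 4.2e-06). Carboxylesterases split, with 4 of 14 higher and 4 lower (3 and 3 without replicate 2). Ces2a, which cleaves esters of drugs and lipids, stood at 13.44, 13.44 and 13.24 in propiconazole livers, against 12.32, 12.30 and 12.49 in control livers (2.01-fold, adjusted p = 2.4e-09). Of 26 ABC transporters 3 rose and 6 fell (2 and 5 without replicate 2), and the efflux pump Abcc3 rose by 0.83 ± 0.16. Gstt3, Gstm3, Ugt2b34 and Ces2a were called with array weights too.

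**Figure D3:**
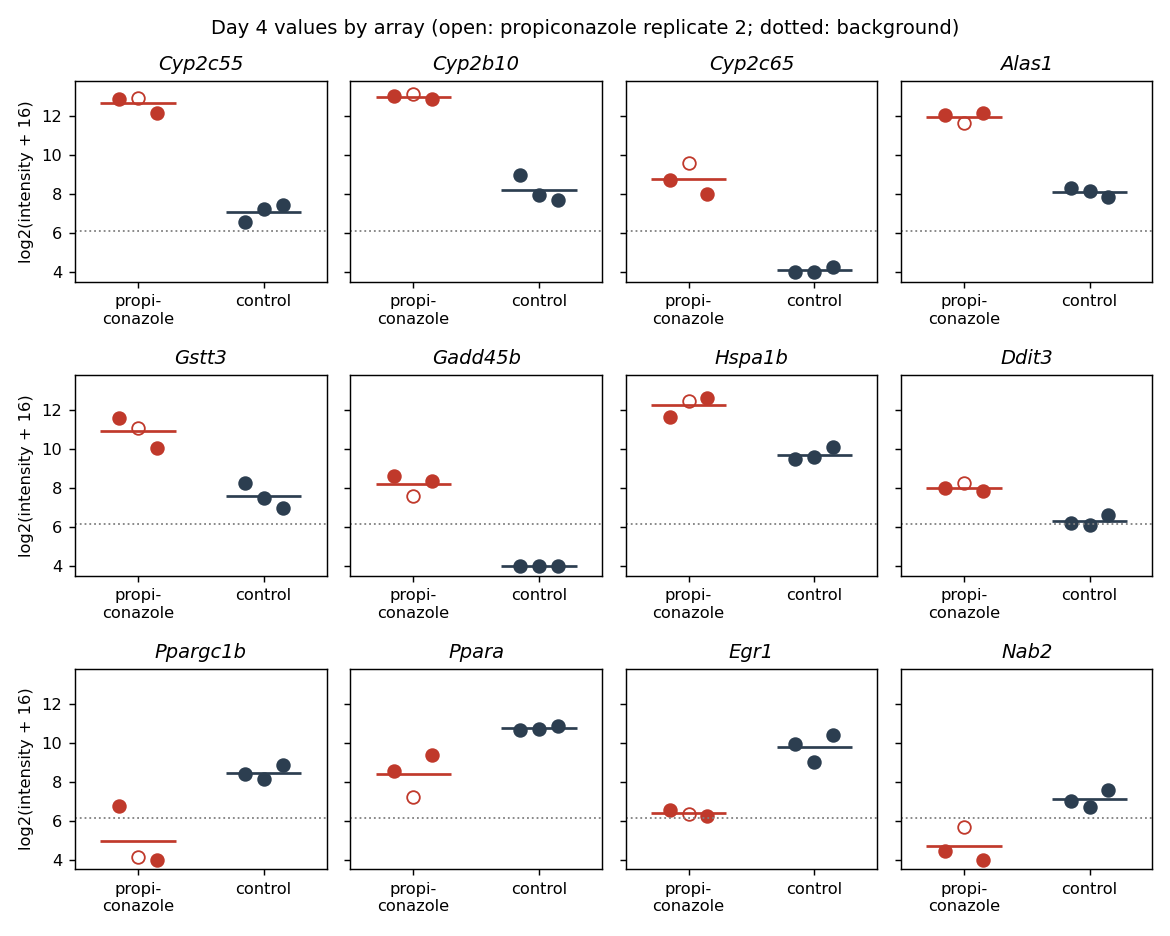
Level of 12 genes, log2(intensity + 16), in each propiconazole liver (left) and control liver (right) on day 4. Open circles are propiconazole replicate 2, horizontal lines are group means and the dotted line is background at 6.13. All of these genes but Ddit3 were chosen on condition that no propiconazole array overlaps a control array, so their separation is no result. The control arrays of Cyp2c65 and Gadd45b and all propiconazole arrays of Nab2 lie below background.

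Several leading rises were signalling and regulatory genes. Gadd45b, a stress-inducible protein that feeds p38 and JNK signalling and is a known CAR partner in mouse liver, stood at 8.59, 7.60 and 8.34 in propiconazole livers, against 4.00 in each control liver. It was at least 4.13-fold higher (adjusted p = 1.0e-04), whereas Gadd45a of the same family had a change of 0.37 ± 0.44 that did not pass (named for comparison after its values were seen). Cyp26a1, which degrades retinoic acid, stood at 9.62, 11.30 and 11.13 in propiconazole livers, against 8.81, 8.50 and 7.55 in control livers (2.39 ± 0.48, adjusted p = 0.0014). Noct, a clock-controlled phosphatase of NADP cofactors, rose by 2.64 ± 0.62, with 7.96, 8.69 and 9.84 in propiconazole livers, against 6.01, 6.48 and 6.07 in control livers. It was the sole rise called both ways among 22 circadian clock genes, of which 2, Cry2 and Hlf, were lower both ways. All genes gave 3.03% higher and 3.03% lower both ways, so the single rise is near that share. Ahr, the receptor for dioxins, rose by 1.43 ± 0.19 (adjusted p = 1.6e-05). Of 7 AHR targets 0 were called with all arrays (3 of 7 above background, median 0.33), and 1 was higher without replicate 2 (median 0.56). For all genes, 13.9% were called with all arrays and 4.42% were higher without replicate 2. Stbd1, which ties glycogen to membranes, stood at 11.03, 11.20 and 10.99 in propiconazole livers, against 9.56, 9.57 and 9.47 in control livers (1.54 ± 0.22, adjusted p = 5.0e-05). Nsl1, a kinetochore subunit, rose by 1.98 ± 0.24. Ctps, which makes CTP, and Meig1 were below background in all control livers and were measured on 2 of 3 propiconazole arrays, as at least 1.71-fold and 1.55-fold higher. The change of Meig1 was 2.44, and 1.48 without replicate 2.

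Some transcripts of protein folding were higher. Of 32 heat shock proteins and chaperones 11 rose and 0 fell with all arrays, and 8 and 0 without replicate 2 (7 both ways), with a median change of 0.40 both ways, where all genes gave 7.36% and 4.42% higher. The values as deposited gave 4 higher and 1 lower, and array weights called none. Hspa1b, the inducible Hsp70, stood at 11.63, 12.46 and 12.63 in propiconazole livers, against 9.46, 9.57 and 10.08 in control livers, a rise of 2.53 ± 0.62 (adjusted p = 0.0066). Its coding sequence is nearly that of Hspa1a, and the arrays may not tell them apart. The probe set named Hspa1a stood at 6.90, 7.72 and 9.81 in propiconazole livers, against 5.67, 5.02 and 4.58 in control livers, where it was below background, and did not pass (adjusted p = 0.062; named for this likeness after its values were seen). The Hsp70 partners of the DnaJ class followed, Dnajb1 by 1.46 ± 0.36, Dnajb4 by 1.42 ± 0.26 and Dnaja1 by 1.05 ± 0.22, and so did the Hsp110 relative Hspa4l by 1.51 ± 0.25. Dnajb4 stood at 9.58, 10.26 and 10.13 in propiconazole livers, against 8.63, 8.62 and 8.47 in control livers (adjusted p = 0.00057). Bag3, a co-chaperone, rose by 1.24 ± 0.37, a call lost without propiconazole replicate 3 (0.85, adjusted p = 0.13), control replicate 1 (1.18, 0.078) or control replicate 2 (1.26, 0.060).

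Genes that respond to unfolded protein in the endoplasmic reticulum formed the next list. Of 42 genes of the unfolded protein and integrated stress response 10 rose and 1 fell, and 11 rose and 0 fell without replicate 2 (7 higher both ways, median 0.34 and 0.32). All genes gave 7.36% higher, and 4.42% without replicate 2. The values as deposited gave 3 and 3, and array weights called none. Ddit3, the stress factor CHOP, stood at 7.98, 8.24 and 7.83 in propiconazole livers, against 6.22, 6.12 and 6.61 in control livers (1.70 ± 0.30, adjusted p = 0.00047). Dnajb9, a chaperone inside the endoplasmic reticulum, stood at 11.86, 12.22 and 11.93 in propiconazole livers, against 10.08, 10.28 and 10.81 in control livers (1.61 ± 0.24, adjusted p = 6.2e-05). The sensor kinases Eif2ak3 (PERK) and Ern1 (IRE1) rose by 0.94 ± 0.21 and 0.60 ± 0.12. Ddit4, an inhibitor of mTORC1, rose by 1.05 ± 0.27, a call lost without control replicate 2 (0.64, adjusted p = 0.12). Atf3, a transcription factor of the integrated stress response and also an immediate early gene, stood at 7.93, 6.66 and 5.22 in propiconazole livers, against 4.27, 4.00 and 4.80 in control livers. Only 2 of 3 propiconazole arrays measured it above background, as at least 1.38-fold higher (adjusted p = 0.00065).

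Promoters of these folding and stress genes were searched for the letters that their known regulators read. The 3 shown are those that hold them among the members higher both ways. The regions are the 250 bases before the gene's start in RefSeq, build GRCm38.p6, at chr17:34959239-34959488 (minus strand) for Hspa1b, chr4:40722218-40722467 (plus strand, 1 of 3 listed starts) for Dnaja1 and chr1:191183334-191183583 (minus strand) for Atf3. Capitals mark GAANNTTC, a pair of heat shock factor units, in Hspa1b and Dnaja1, and TGATGNAA, the element read by ATF4 with C/EBP partners, in Atf3, where it runs on the opposite strand.
Hspa1b: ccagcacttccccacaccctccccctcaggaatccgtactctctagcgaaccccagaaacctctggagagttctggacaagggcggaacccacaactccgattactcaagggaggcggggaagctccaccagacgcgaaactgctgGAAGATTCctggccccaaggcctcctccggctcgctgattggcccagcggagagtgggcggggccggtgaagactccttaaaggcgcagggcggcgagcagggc
Dnaja1: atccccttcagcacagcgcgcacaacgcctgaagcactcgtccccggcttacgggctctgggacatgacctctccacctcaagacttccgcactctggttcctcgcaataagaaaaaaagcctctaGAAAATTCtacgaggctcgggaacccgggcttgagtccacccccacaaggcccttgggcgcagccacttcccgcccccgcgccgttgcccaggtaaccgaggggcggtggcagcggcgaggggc
Atf3: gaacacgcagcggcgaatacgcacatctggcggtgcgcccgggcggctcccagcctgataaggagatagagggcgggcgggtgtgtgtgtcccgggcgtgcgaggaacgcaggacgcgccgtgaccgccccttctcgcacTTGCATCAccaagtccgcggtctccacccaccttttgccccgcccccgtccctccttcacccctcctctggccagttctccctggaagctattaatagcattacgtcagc
Both strands were searched, and GAANNTTC is its own reverse complement. It stood in 9 of the 27 heat shock and chaperone genes with a listed promoter, in 2 of the 7 that were higher both ways, and in 6.62% of the 14103 tested genes with a listed promoter. TGATGNAA stood in 8 of 38 unfolded protein and integrated stress response genes, in 1 of the 7 that were higher both ways, and in 2.84% of all. A match of letters does not show binding.

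Of 40 proteasome subunits measured, 13 rose and 0 fell, and 9 and 0 without replicate 2 (8 both ways), with medians of 0.27 and 0.25. All genes gave 7.36% and 4.42% higher. In the values as deposited 0 were higher and 1 lower, and the median changed sign to -0.02, which was 0.14 above that of all genes; on the conazole arrays alone 0 were called. Psmd14, a deubiquitinase of the lid, rose by 0.62 ± 0.14, and Psmd6 of the same lid by 0.53 ± 0.10 (0.34 without replicate 2). The catalytic subunit Psmb5 stood at 11.68, 11.16 and 11.08 in propiconazole livers, against 10.94, 10.90 and 10.95 in control livers (0.37 ± 0.08, adjusted p = 0.0037; 0.19 without propiconazole replicate 1), and it was called with array weights.

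Among 60 cell cycle and proliferation genes 11 rose and 2 fell, and 6 rose and 0 fell without replicate 2, where all genes gave 7.36% and 4.42% higher (5 higher both ways, median 0.49 and 0.38). The values as deposited gave 2 and 4. Rrm2, a subunit of ribonucleotide reductase, stood at 7.94, 7.56 and 6.90 in propiconazole livers, against 5.92, 5.85 and 6.32 in control livers (1.44 ± 0.31, adjusted p = 0.0027). Hells, a DNA helicase of dividing cells, stood at 8.36, 7.23 and 7.39 in propiconazole livers, against 6.17, 6.12 and 6.54 in control livers (1.39 ± 0.25, adjusted p = 0.00065). Many members are dim: 31 of 60 had a group mean above background. Srm, which makes the polyamine spermidine, rose by 1.44 ± 0.22 (adjusted p = 1.0e-04). Of 18 enzymes of cholesterol synthesis 3 rose and 1 fell, and 1 rose without replicate 2. That was Sqle, the squalene oxidase, with 10.61, 11.57 and 10.41 in propiconazole livers, against 9.98, 9.21 and 9.35 in control livers (1.35 ± 0.30, adjusted p = 0.0034). Cyp51, the mouse form of the enzyme that propiconazole blocks in fungi, had 0.68 ± 0.25 and did not pass (adjusted p = 0.062; named for that role after its values were seen).

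Of 31 xenobiotic and metabolic nuclear receptors and coactivators 1 rose and 8 fell, and 2 rose and 10 fell without replicate 2 (7 lower both ways), where all genes gave 6.53% and 4.87% lower. Ppargc1b, a PGC-1 coactivator, showed the largest fall of all named genes. It stood at 6.78, 4.13 and 4.00 in propiconazole livers, against 8.41, 8.16 and 8.84 in control livers, so that 1 of 3 propiconazole arrays was above background (-3.50 ± 0.43, adjusted p = 4.2e-06; -3.08 without replicate 2). Ppara, which encodes PPAR-alpha, stood at 8.57, 7.21 and 9.38 in propiconazole livers, against 10.67, 10.69 and 10.83 in control livers. Its change was -2.34 ± 0.33 (5.08-fold lower, adjusted p = 3.1e-05), and -1.76 without replicate 2. Both genes were called with array weights and on the conazole arrays alone. Ppargc1a was below background in all propiconazole livers and at least 1.48-fold lower (adjusted p = 0.0032), and Nr1h3, the sterol sensor LXR-alpha, fell by 0.77 ± 0.16. The partner receptor Rxra fell by 1.08 ± 0.25, and by 0.45 without replicate 2.

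Of 37 fatty acid oxidation genes and PPAR-alpha targets 0 rose and 13 fell, and 0 rose and 12 fell without replicate 2, where all genes gave 6.53% and 4.87% lower (9 both ways), with medians of -0.41 and -0.39. The direction held in the values as deposited, with a median 0.49 below that of all genes. No member was called on the conazole arrays alone or with array weights. Acaa1b, a peroxisomal thiolase, stood at 12.44, 12.28 and 13.01 in propiconazole livers, against 13.26, 13.02 and 13.23 in control livers (-0.59 ± 0.12, adjusted p = 0.0016). Decr1, which handles unsaturated fatty acids, fell by 0.51 ± 0.12, and the mitochondrial thiolase Acaa2 by 0.43 ± 0.10 (0.28 without propiconazole replicate 1). The largest changes of the group leaned on replicate 2. Pex11a, a peroxisome division protein, had 9.52, 6.99 and 9.64 in propiconazole livers, against 10.61, 9.95 and 10.34 in control livers, a change of -1.59 ± 0.35, and -0.72 without replicate 2. The acyl-CoA dehydrogenases Acads and Acadvl had changes of -1.21 and -0.97, and of -0.58 and -0.36 without replicate 2.

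Of 31 immediate early genes and MAPK feedback genes measured, 2 rose and 5 fell, and 3 and 4 without replicate 2, where all genes gave 7.36% higher and 6.53% lower, so that the rises were near the share of all genes. Egr1, a growth factor-induced transcription factor, stood at 6.52, 6.35 and 6.25 in propiconazole livers, against 9.92, 9.01 and 10.38 in control livers (-3.39 ± 0.90, adjusted p = 0.012). Nab2, its corepressor and target, was below background in all propiconazole livers (4.42, 5.69 and 4.00), against 7.02, 6.70 and 7.58 in control livers, and at least 1.96-fold lower (adjusted p = 0.00035). It was called with array weights, and Egr1 was not (adjusted p = 0.36). Junb, an AP-1 subunit, stood at 6.69, 4.00 and 4.42 in propiconazole livers, against 7.83, 7.19 and 7.76 in control livers (-2.56 ± 0.60, adjusted p = 0.0049). Klf10 fell by 1.37 ± 0.40, a call lost without control replicate 1 (adjusted p = 0.060) or 3 (0.087). Atf3 and the orphan receptor Nr4a2 (0.95 ± 0.32) were the rises of this group. The call of Nr4a2 was lost without propiconazole replicate 1 (0.85) or 3 (0.76), or control replicate 1 (0.84), 2 (0.99) or 3 (1.04).

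**Figure D4:**
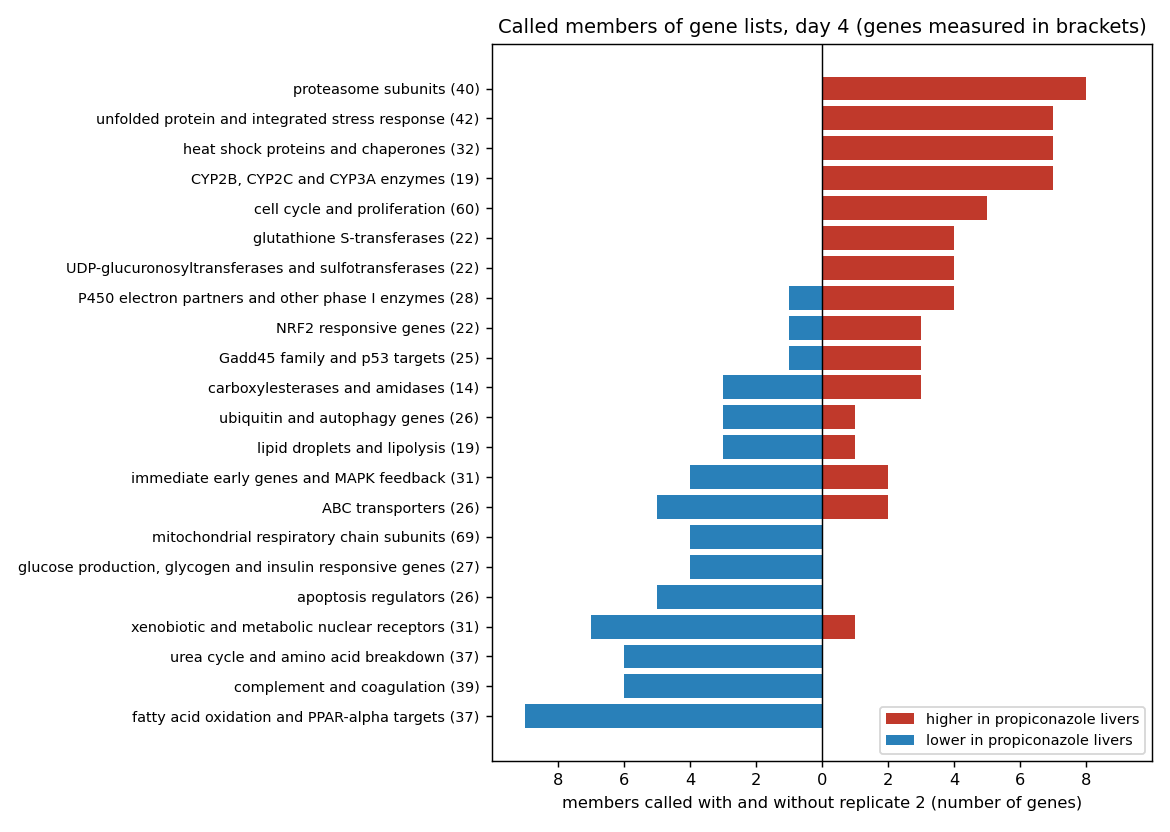
Number of members called in the same direction with and without propiconazole replicate 2, for the gene lists with 4 or more such members; bars to the right are genes higher and bars to the left genes lower in propiconazole livers, with the genes measured in brackets. Proteasome, folding and P450 lists hold 7 or 8 called rises and no fall, and the fatty acid oxidation list holds 9 falls and no rise.

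Among the lists of other hepatocyte functions, the called genes were mostly lower. Of 37 genes of the urea cycle and amino acid breakdown 0 rose and 10 fell, and 8 fell without replicate 2, where all genes gave 6.53% and 4.87% lower (6 both ways, median -0.35 and -0.18). The histidine ammonia lyase Hal stood at 10.10, 10.72 and 11.36 in propiconazole livers, against 11.58, 11.77 and 11.87 in control livers (-1.01 ± 0.18, adjusted p = 0.00049), and was called with array weights. Amdhd1, a later enzyme of histidine breakdown, had -1.40 ± 0.24, and -0.91 without replicate 2. Of 39 complement and coagulation genes 0 rose and 14 fell, and 7 fell without replicate 2 (6 both ways). Coagulation factor F5 stood at 10.76, 10.11 and 11.28 in propiconazole livers, against 11.58, 11.73 and 11.67 in control livers (-0.95 ± 0.16, adjusted p = 0.00028; -0.64 without replicate 2).

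Of 22 genes of one carbon and methionine metabolism 0 rose and 7 fell, and 3 fell without replicate 2. Beside this and the next lists, all genes gave 7.36% higher and 6.53% lower (4.42% and 4.87% without replicate 2). Mat1a, which makes S-adenosylmethionine, had -1.40 ± 0.32, and -0.70 without replicate 2. Of 27 genes of glucose production, glycogen and insulin response 0 rose and 5 fell (4 without replicate 2), led by Pcx, pyruvate carboxylase, at 10.90, 10.17 and 11.09 in propiconazole livers, against 11.59, 11.61 and 11.47 in control livers (-0.84 ± 0.13, adjusted p = 8.0e-05). Pcx was called with array weights. Among 19 lipid droplet and lipolysis genes 1 rose and 6 fell (3 and 4 without replicate 2), and the single rise both ways was the glycogen protein Stbd1. Plin2, the droplet coat protein, fell by 0.49 ± 0.12. Mitochondrial respiratory chain subunits stayed nearer to the background share, with 10 of 69 lower and 0 higher (5 lower without replicate 2, median -0.10 and -0.05).

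The remaining large falls had no common theme among the lists. Fam20a, a pseudokinase of secreted proteins, stood at 4.00, 4.00 and 7.19 in propiconazole livers, against 7.70, 7.97 and 8.15 in control livers (-2.87 ± 0.61, adjusted p = 0.0024). Zmynd8, a chromatin reader, stood at 5.72, 6.78 and 4.42 in propiconazole livers, against 7.39, 7.68 and 7.94 in control livers (-2.03 ± 0.39), and was among the genes called with array weights, as were Tmem131l (-2.26 ± 0.41) and Prrc2c (-2.24 ± 0.38, and -1.48 without replicate 2). Of 6 probe sets of Prrc2c, 4 were lower. Ngef (-2.29 ± 0.39), Agfg2 (-2.27 ± 0.40) and Neurl4 (-2.17 ± 0.52) were above background on 1 of 3 propiconazole arrays each. Rdh16f2 of the retinol dehydrogenase family stood at 7.01, 9.33 and 9.31 in propiconazole livers, against 11.03, 10.99 and 10.25 in control livers. Its change of -2.21 ± 0.59 was -1.44 without propiconazole replicate 1 (adjusted p = 0.083). The antisense RNA gene Hectd2os (-3.09 ± 0.78) likewise lost its call without replicate 1 (-2.23, adjusted p = 0.051). Gnb2, a G protein subunit, was at 9.70, 4.26 and 9.36 in propiconazole livers, against 9.94, 10.03 and 9.91 in control livers. Its call was lost without control replicate 1 (adjusted p = 0.056) or 2 (0.061).

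Some calls with all arrays were not made without replicate 2. Nr1i3, which encodes CAR, stood at 8.45, 4.00 and 8.78 in propiconazole livers, against 9.44, 9.36 and 9.05 in control livers, a change of -2.20 ± 0.59 that was -0.66 without replicate 2 (adjusted p = 0.0503). The acute phase gene Saa3 had 8.78, 12.32 and 7.11 in propiconazole livers, against 7.67, 7.12 and 7.07 in control livers, and S100a8, a calprotectin subunit abundant in neutrophils, had 11.28, 12.54 and 6.56, against 5.60, 5.71 and 4.86. Their changes of 2.12 and 4.73 became 0.66 and 3.53 without replicate 2 (adjusted p = 0.52 and 0.13). The call of S100a8 was also lost without propiconazole replicate 1 (4.16) or control replicate 3 (4.47), and that of Saa3 without control replicate 1, 2 or 3 (2.31, 2.04 and 2.01). Of 30 acute phase genes 3 rose and 1 fell, and 0 rose and 3 fell without replicate 2. All genes gave 7.36% higher and 6.53% lower (4.42% and 4.87% without replicate 2). The summed level of 11 neutrophil markers was 11.74, 14.09 and 9.45 in propiconazole livers, against 9.24, 9.66 and 8.81 in control livers. S100a8 is among the 11, so the sum follows it by construction. Of these markers S100a8 alone was called, none was called without replicate 2, and Camp, Mmp8, Mmp9 and Csf3r lay below background on all 6 arrays. The part of such cells in the acute phase values was not tested.

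Summed markers of the other cell types overlapped between the groups. The level of 19 Kupffer cell and macrophage markers was 11.90 to 12.78 in propiconazole livers and 11.97 to 12.42 in control livers, and 1 of the 19 was called higher, Itgam, which lay below background on all 6 arrays. Sinusoidal endothelial markers (19 genes) had 12.19 to 12.57 in propiconazole livers and 12.11 to 12.93 in control livers, while stellate cell markers (19 genes) had 12.34 to 13.04 in propiconazole livers and 12.71 to 13.26 in control livers. The 12 cholangiocyte and progenitor markers had 13.14, 13.26 and 12.21 in propiconazole livers, against 12.23, 12.38 and 12.32 in control livers, so that 2 propiconazole livers lay above all controls. Of these 12, 3 were called higher (2 without replicate 2), where all genes gave 7.36% and 4.42% higher. Krt7, Krt19, Cftr, Afp and Cldn7 were below background on all 6 arrays.

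Propiconazole was also set against triadimefon, the other triazole fed for 4 days, at a lower concentration in the diet (2500 and 1800 ppm), so the doses were not matched. With all arrays 174 genes were higher and 152 lower under propiconazole (1.84% of 17728 in all), and without replicate 2 73 were higher and 84 lower, with 71 called both ways. The split rested on the scaling, with 94 higher and 5948 lower in the values as deposited (median over all genes -0.38) and 832 higher and 1508 lower after median centring. Cyp2c65 differed most among the rises: it stood at 8.71, 9.60 and 8.00 in propiconazole livers, against 7.77, 6.80 and 5.01 in triadimefon livers (2.25 ± 0.41, adjusted p = 0.0042; 1.83, adjusted p = 0.034, without replicate 2). The difference was 1.48 without triadimefon replicate 3. Cyp2c55 and Cyp2b10 differed by 0.34 ± 0.32 and 0.36 ± 0.45 between the triazoles and did not pass. Inpp5d (1.64 ± 0.31, and 1.13 without replicate 2) and Ints10 (1.53 ± 0.24) were also higher, at levels near or below background. Atf3 (1.52, and 0.86 without propiconazole replicate 1) and Abcc8 (1.32) were higher, and Fam20a (-2.47), Serpina4-ps1 (-2.43), Ppargc1b (-1.81), Vegfb (-1.76) and Agfg2 (-1.72) lower, with all arrays. None of these 7 passed without replicate 2 (adjusted p of 0.14 to 0.21), and each also lost its call without 1 or more of the triadimefon arrays.

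The change on day 4 was set against the change after 30 days of the same diet, each against its own control livers. The difference passed for 345 genes (1.95%), 219 with a more positive change on day 4 and 126 with a more negative one, and without replicate 2 for 270 and 250 (233 called both ways). The values as deposited gave 21 more positive and 72 more negative, and median centring 43 and 49. The mean Actb 3′ minus 5′ difference was 1.07 in control and 1.17 in propiconazole livers on day 4, against 0.37 and 0.41 on day 30. Its part in the differences between days was not tested. The change of Alas1 was 3.85 on day 4 and 1.36 on day 30 (difference 2.49 ± 0.61, adjusted p = 0.029). Alas1 stood at 12.36, 12.48 and 11.72 in day 30 propiconazole livers, against 10.43, 11.85 and 10.20 in day 30 control livers, so the propiconazole livers of both days were at like levels and the day 30 controls lay above the day 4 controls. The change of Ddit3 was 1.70 on day 4 and -0.63 on day 30 (2.33 ± 0.43, adjusted p = 0.0032), and that of Dnajb9 1.61 and 0.21 (1.40 ± 0.34, adjusted p = 0.025). The Alas1 difference lost its call without any one of control day 4 replicates 2 and 3, propiconazole day 30 replicate 3 and control day 30 replicate 2 (1.98 to 2.52, adjusted p of 0.053 to 0.092). The differences of the inducible P450 genes did not pass, which does not show that their changes were equal. Cyp2c55 had 5.57 on day 4 and 6.00 on day 30 (difference -0.42 ± 0.45), and Cyp2b10 4.80 and 5.94 (-1.14 ± 0.63). Cyp2c65 had 4.69 and 6.12 (-1.43 ± 0.58, and -1.85 without replicate 2, adjusted p = 0.073). Gstt3 had 3.32 and 3.11, and Gadd45b 4.18 and 5.21, which did not pass either. The control livers of both days were below background for Cyp2c65 and Gadd45b.

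For Ppargc1b all 6 day 30 livers, treated and control, were at the floor of 4.00. No fall could be measured there, and its difference of -3.50 only restates the day 4 change. Decr1 changed by -0.51 and 0.34 (-0.85 ± 0.17, adjusted p = 0.0074). Other large differences were those of Rmnd5b, Nck1 and Srfbp1, more positive on day 4, and of Ptpn18, Entpd2, Fzd6 and Tmem131l, more negative on day 4. Only 1 of 3 probe sets of Nck1, 1 of 2 of Ptpn18 and 2 of 3 of Fzd6 changed in the gene's direction on day 4. Entpd2, Fzd6 and Srfbp1 were below background in all 6 day 30 livers, where their changes could not be measured. Rmnd5b was above background in 1 of these livers, a control at 6.69, so its day 30 change could not be measured either. On day 4, Srfbp1 was above background in 1 propiconazole liver and 0 control livers. Ptpn18 was below background in all day 4 propiconazole and all day 30 control livers, and reached at most 6.63 in the others. Of these 7, Entpd2 (adjusted p = 0.054) and Tmem131l (0.11) did not pass without replicate 2, nor without several other single arrays. Rmnd5b lost its call without control day 4 replicate 2, propiconazole day 30 replicate 2 or control day 30 replicate 1 (2.20 to 2.49), and Fzd6 without control day 4 replicate 1, propiconazole day 30 replicate 3 or control day 30 replicate 2 (-2.14 to -2.09).

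**Figure D5:**
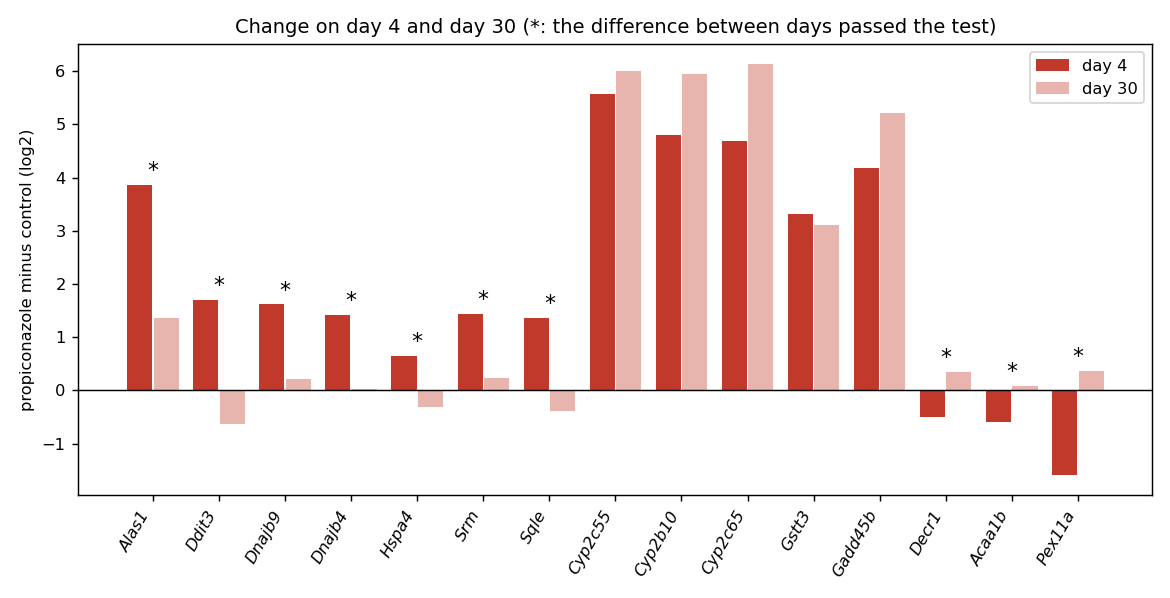
Change (propiconazole minus control, log2) of 15 genes on day 4 and on day 30, each against its own controls; asterisks mark genes whose difference between the days passed at an adjusted p under 0.05 with all arrays. Alas1, Ddit3 and the DnaJ genes carry an asterisk, and the induced P450 genes, Gstt3 and Gadd45b do not.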

How the data were processed

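Total liver RNA was hybridised to Affymetrix mouse genome arrays, and the authors deposited 1 linear intensity per probe set, of which 21.15% were below 0; the summarising software is not given in these sources. Intensities of 38 arrays were quantile normalized, floored at 0 and taken as log2(value + 16). The platform annotation gave 34945 of 45101 probe sets 1 symbol, and the brightest probe set stood for each of 18193 genes; 465 constant ones were left out. The fit, with limma 3.58.1, held a mean for each of 10 groups (R 4.3.3, intensity trend, 28 residual and 2.91 prior degrees of freedom), tests were two-sided, and p-values were Benjamini-Hochberg adjusted over all genes. The fit was tested on simulated data. Array pairs held no identical values. Replicate numbers were not used as pairs, since deviations of same-numbered propiconazole and control arrays correlated at 0.07, 0.01 and 0.16. Where all arrays of a group were below background, the fold is a bound, given as at least N-fold. The members, the 59 gene lists (1288 of 1474 genes measured) and the named genes (the 15 largest changes each way among genes that qualified, up to 6 called members per list, 5 each way per further comparison) were chosen with earlier results of these data known. Promoters are RefSeq's. The alternatives tried were other scalings, offsets and fits, array weights, a covariate and single arrays left out.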

Additional observations from a re-analysis of the deposited data

Results flagged for a closer look

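These genes had a change on day 4 that differed from the change on day 30, by a test of the difference itself (limma, adjusted over all genes, 3 arrays in each of the 4 groups). Values are the day 4 change minus the day 30 change in log2 units. Among genes with a more positive change on day 4, the difference was 2.80 for Rmnd5b, 2.57 for Nck1, 2.49 for Alas1, 2.33 for Ddit3 and 2.24 for Srfbp1. It was 1.74 for Sqle, 1.40 for Dnajb9, 1.40 for Dnajb4, 1.38 for Cyp51, 1.21 for Srm and 0.97 for Hspa4, a relative of Hsp70. Among genes with a more negative change on day 4, it was -0.67 for Acaa1b, -0.85 for Decr1, -1.95 for Pex11a, -2.16 for Tmem131l and -2.19 for Fzd6. It was -2.48 for Entpd2, -2.68 for Ptpn18 and -3.50 for Ppargc1b. Each gene stands for its brightest probe set. On day 4, 1 of 3 probe sets of Nck1, 1 of 2 of Ptpn18 and 2 of 3 of Fzd6 changed in the gene's direction. Without propiconazole day 4 replicate 2, Sqle (1.39, adjusted p = 0.062), Dnajb4 (1.26, 0.066), Cyp51 (adjusted p = 0.071), Srm (1.08, 0.071), Acaa1b (-0.53, 0.072), Tmem131l (-1.59, 0.11) and Entpd2 (-2.33, 0.054) did not pass, and Pex11a was at -1.09 (0.013). Ppargc1b was at the floor of 4.00 in all 6 day 30 livers, and Entpd2, Fzd6 and Srfbp1 were below background in all 6. Rmnd5b was above background in 1 of the 6, a control liver at 6.69. For these genes no change could be measured on day 30, and their differences do not show that the days differ. Ptpn18 lay near or below background throughout, at most at 6.63.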

How the results depend on the processing

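The number of genes called against control livers differed with the arrays normalized or fitted together and with their weights. It was 221 with quantile normalization over the conazole arrays, 224 with the conazole arrays alone in the fit, 98 with array weights and 6 on the 6 arrays alone, against 2463 in the fit reported. Without propiconazole replicate 2 the same settings gave 222, 206, 111 and 8, and an Actb 3′ covariate gave 886, against 1644. Against triadimefon, values as deposited gave 6042 and median centring 2340, against 326. For the day 4 minus day 30 change they gave 0.526% and 0.519% of genes, against 1.95%. Leaving out single arrays gave 1526 to 3856 calls against control, 886 to 2071 without propiconazole replicate 2, 100 to 2343 against triadimefon, and 1.02% to 6.96% of genes between days. The replicate numbers do not pair the samples; with the replicate block the counts were 1965, 1173 and 135, and 0.869% of genes between days. The cause of these shifts was not tested. Of 99 genes named, none reversed direction in a setting where it was called there or in the fit reported. A change of sign between uncalled results was not counted. The call was lost by 14 in the values as deposited, 3 with median centring, 57 with quantile normalization over the conazole arrays, 55 on the conazole arrays, 71 with array weights and 89 on the 6 arrays alone, and by 2 to 6 when any 1 array was left out. Precision is limited by 3 arrays a group and, for dim genes, by signal near background.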
